A study of Mus musculus with 46 samples.

Results

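Endothelial cells of the mouse colon were described here from single-cell counts, and their genes were then followed in bulk RNA-seq of the same tissue. A cell was counted as endothelial when at least 200 genes were detected in it, when it held no molecule of Epcam (the epithelial surface marker) or Ptprc (the pan-leukocyte marker CD45), and when at least 3 of the 6 genes Pecam1, Cdh5, Kdr, Flt1, Egfl7 and Tie1 had at least 1 unique molecule, or UMI. Of 25658 cells with 200 or more detected genes, 322 met this rule, which is 1.25% (95% exact Clopper-Pearson interval 1.12 to 1.40%). The matrix named CT held 105 of them, the matrix named Ime 33 and the matrix named Met 184. The cells were thus chosen by their UMIs of these 8 genes, so the levels of the 6 rule genes are given as a description only.

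Endothelial cells line every blood and lymphatic vessel. VE-cadherin (Cdh5), PECAM-1 and claudin-5 hold neighbouring cells together, and receptors of the VEGF family (Flt1, Kdr, Flt4) and of the angiopoietin family (Tek, Tie1) relay growth and survival signals. In the gut wall, fenestrated capillaries take up absorbed nutrients, venules admit leukocytes, arteries carry Notch activity, and lymphatic vessels drain fluid and lipid.

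All mice were male C57BL/6J animals. For single cells, colon was taken after 12 weeks of metformin or imeglimin in the drinking water or from controls, fixed with formaldehyde, dissociated, and measured with a probe-based 10x assay. Metformin is a biguanide and imeglimin is a related glucose-lowering drug with a triazine ring. Bulk RNA-seq was made from whole colon 6 h after 1 oral dose of 600 mg/kg of either drug, and after 4 weeks of 3 mg/mL in drinking water, each beside controls that received neither drug, with 3 libraries in each group. The age of the mice and the number of mice behind each matrix are not given in the sources used here. The 3 matrices belong to 1 GEO sample, whose treatment label lists control, metformin and imeglimin together and whose title names control only, so the link from a matrix to a treatment rests on the short names CT, Ime and Met. There is 1 matrix per name and no replicate, so no test was run between matrices. The intervals printed below cover counting error only, and what separates matrices may be treatment, animal or library, which cannot be told apart.

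The matrices differed in depth. The median number of UMIs over all cells was 2342.5 in CT, 1355 in Ime and 5496.5 in Met. The endothelial cells followed the same order, with medians of 934, 681 and 2623 UMIs and of 755, 565 and 1754 detected genes. No full cell barcode occurred in more than 1 matrix (0), but the first 16 bases, which mark the droplet, were shared for 27, 9 and 39 endothelial cells (25.7%, 27.3% and 21.2%), close to the shares over all cells (26.7%, 30.9% and 19.5%). In the bulk colon tables the libraries held 31606797 to 38795175 counts at 6 h and 32236291 to 44373717 counts at 4 weeks.

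The label was checked with 33 other genes that are widely used as endothelial markers and were not part of the rule. Levels were computed as CPM, that is UMIs summed over the cells in question and scaled to a total of 1000000. For 31 of the 33 genes the level in endothelial cells was above that in each of 4 reference populations of the same matrices, namely epithelial, immune, fibroblast and mural cells with none of the 6 rule genes, and for 21 genes it was more than 10 times higher. Cldn5, which encodes the tight-junction protein claudin-5, had a UMI in 58.4% of endothelial cells (52.8 to 63.8%) and in 0.851% of epithelial cells. The median depths of these populations were 1665 and 4649 UMIs. After each cell was thinned to 500 UMIs, the shares were 41.3% and 0.125%. Adgrl4, an adhesion receptor of endothelium, had a UMI in 59.3% of cells (34.2% after thinning), Eng, a co-receptor for BMP ligands, in 64.9% (30.4%), and Esam, a junctional adhesion molecule, in 55.6% (37.9%). The 33 genes had a median of 36.6% of endothelial cells with a UMI against 0.882% of epithelial cells, and 15.5% against 0.125% after thinning. Both exceptions are genes that other colon cells are known to use. The transcription factor gene Fli1 was found in 33.5% of endothelial and 36.1% of immune cells, and Cd34, a sialomucin, in 29.2% of endothelial and 37.5% of fibroblast cells, so a bulk value of Cd34 is not that of vessels alone.

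**Figure D1:**
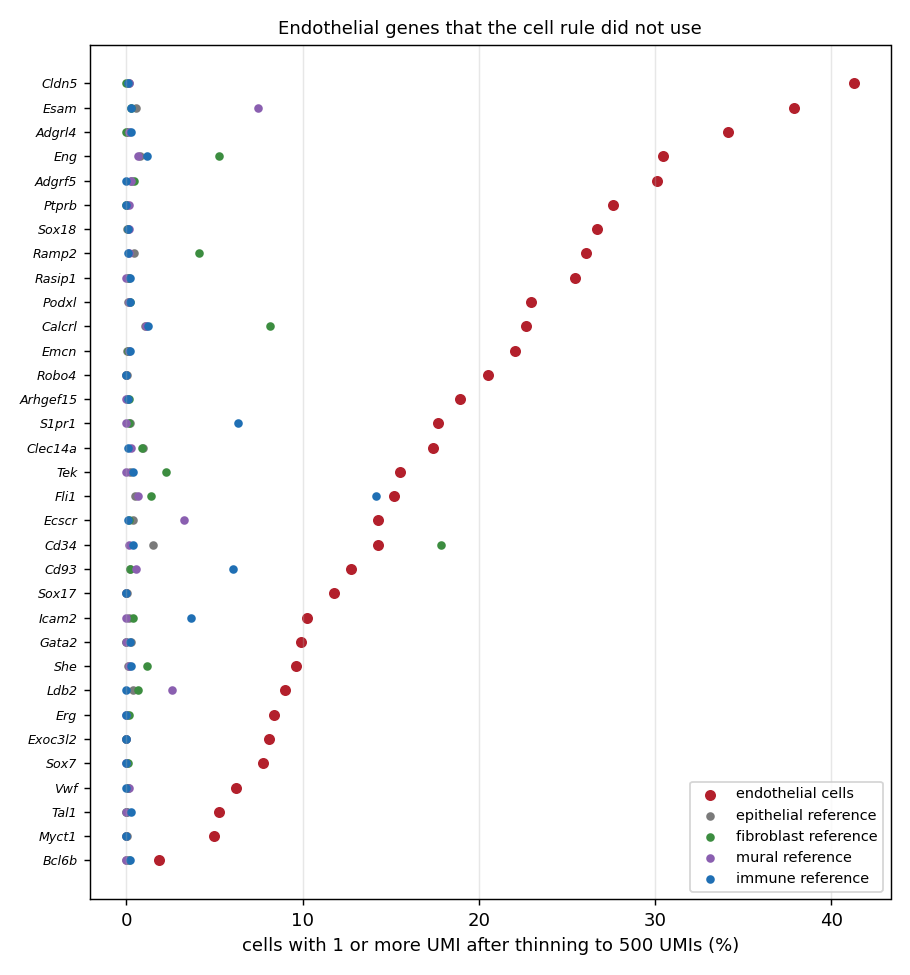
Share of cells with at least 1 UMI (x axis, percent, every cell thinned to 500 UMIs) for 33 endothelial genes that the rule did not use (y axis), in endothelial cells and in epithelial, immune, fibroblast and mural reference cells. Most genes lie far to the right in endothelial cells only, as with Cldn5 at 41.3% against 0.125% in epithelial cells, whereas Cd34 lies higher in fibroblasts and Fli1 is close to its value in immune cells.

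Among the rule genes, Egfl7, a secreted protein of the vessel wall, had a UMI in 92.9% of endothelial cells and Pecam1 in 91.0%. The receptor genes Tie1, Kdr and Flt1 followed with 65.5%, 57.8% and 44.1%, and Cdh5 with 51.9%. Of the endothelial cells, 120 held exactly 3 rule genes (54 in CT, 23 in Ime and 43 in Met), and 160 further cells without Epcam or Ptprc held exactly 2 and stayed outside (88, 32 and 40). The cells just inside had median depths of 854.5, 626 and 1679 UMIs and those just outside 854, 637.5 and 1397.5 UMIs.

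The genes with the most UMIs in endothelial cells were largely those of lymphatic endothelium and of the vessel matrix. Ccl21a, the chemokine that draws dendritic cells and lymphocytes into lymphatics, led with 5382 CPM against 38.9 CPM in all other cells. Ltbp4, a matrix protein that binds latent TGF-beta, followed with 5264 CPM and had a UMI in 87.6% of endothelial cells. Fgl2, Lyve1 (a hyaluronan receptor), Igfbp7, Timp3, Vim, Mmrn1, Txnip and Col4a1 completed the leading 10. Txnip, a regulator of glucose uptake, was the least specific of them, at 2651 CPM against 1285 in other cells. UMI numbers of different genes also depend on their probes, so this order is not an order of transcript numbers. It also leans on Met, whose endothelial cells gave 496443 UMIs against 123057 in CT and 33205 in Ime. Ccl21a was at 2105 CPM in CT, 1897 in Ime and 6428 in Met, and Igfbp7 at 5079, 4999 and 2774. Among these 10 genes Ccl21a thus led in Met only. By the ratio to all other cells, the leading genes included Esm1 (249 times higher), a gene of sprouting capillaries, Ccm2l (181), Gpihbp1 (179), which carries lipoprotein lipase across capillary endothelium, Clec1a (176), Sox17 (174), a transcription factor of arterial endothelium, Robo4 (172), Emcn (172) and Sox18 (152).

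RNA of other cell types was also present in the endothelial cells, and its level differed between the matrices. The summed level of 10 goblet cell markers was 1772 CPM in CT, 1506 in Ime and 5993 in Met. Fibroblast reference cells showed a like order, with 2362, 1757 and 5804 CPM. The summed level of 15 epithelial markers was 2617, 1446 and 4476 CPM. Of 15 fibroblast markers the summed level was 3283 CPM in CT, 903 in Ime and 451 in Met, and of 15 mural and smooth muscle markers 228, 3584 and 989 CPM. Of the endothelial cells, 3 in CT, 2 in Ime and 15 in Met held 3 or more fibroblast or mural genes, but single genes of these lists were found more widely, such as Tagln in 6, 3 and 66 cells, Acta2 in 5, 4 and 26 and Col3a1 in 13, 3 and 31. The 10 T cell markers summed to 276, 422 and 737 CPM, most of it Thy1 (244, 361 and 703), which lymphatic endothelium also expresses, and Cd3d and Cd8a were at 0 in all matrices. Of 6 platelet markers Ppbp, Gp1ba, Gp9 and Gp6 were at 0 in all matrices. The part of such RNA in the differences between matrices was not tested beyond repeating the counts of genes without the cells that held 3 or more fibroblast or mural genes.

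Endothelial cells made up 1.31% of the CT cells (105 of 8000, interval 1.07 to 1.59%), 0.698% of the Ime cells (33 of 4730, 0.481 to 0.978%) and 1.42% of the Met cells (184 of 12928, 1.23 to 1.64%). The Ime share was the lowest and its interval did not overlap the others, while those of CT and Met overlapped. With every cell thinned to 500 UMIs before the rule was applied, the shares were 0.814% (0.629 to 1.04%), 0.467% (0.293 to 0.707%) and 0.893% (0.738 to 1.07%). With at least 2 rule genes asked for they were 2.41%, 1.37% and 1.73%, and with at least 4 they were 0.638%, 0.211% and 1.09%. The order of CT and Met thus turned with the number of rule genes, and Ime was lowest in each of these settings. However, the intervals of Ime and CT overlapped after thinning. With at least 2 rule genes those of Ime (1.06 to 1.75%) and Met (1.51 to 1.97%) overlapped. Of the cells without Epcam and Ptprc alone, endothelial cells were 4.41% in CT, 1.74% in Ime and 9.77% in Met, because Met held fewer such cells (1883 of 12928) than CT (2379 of 8000) or Ime (1894 of 4730). Dissociation and capture also set such shares, and their part was not tested.

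**Figure D2:**
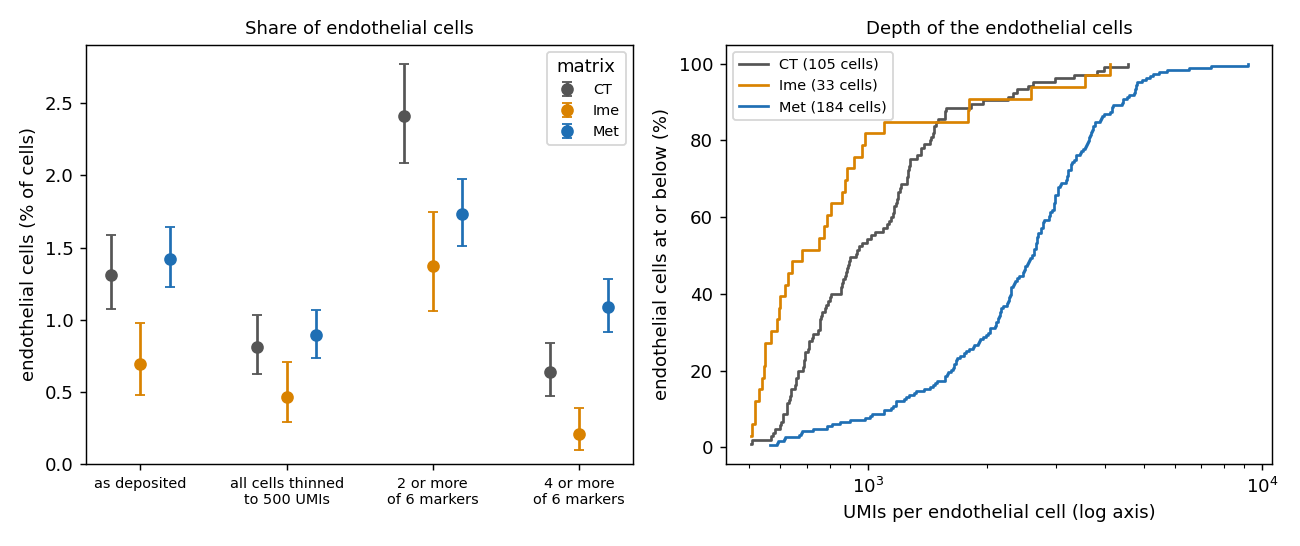
Left, share of cells counted as endothelial in each matrix (y axis, percent; points with 95% exact intervals) under 4 settings of the rule. Right, cumulative share of endothelial cells (y axis) by UMIs per cell (x axis, log scale). Ime is lowest in all 4 settings, CT and Met change order with the setting, and Met cells are deeper (median 2623 UMIs) than those of CT (934) and Ime (681).

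The 322 cells fell into 4 clusters, which were named from vessel marker genes. Since clustering used every variable gene, the genes that define a cluster are a description, with no test. The largest cluster was lymphatic-like with 144 cells (44.7%), followed by a capillary-like cluster with 89 (27.6%), a venous-like cluster with 55 (17.1%) and an arterial-like cluster with 34 (10.6%).

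The lymphatic-like cells carried the genes of lymphatic identity. Prox1, the transcription factor that sets lymphatic fate, was at 961 CPM there, at 19.1 in capillary-like cells and at 0 in the other 2 clusters. Flt4, which encodes the VEGF-C receptor VEGFR-3, was at 2843 CPM against 42.5 to 222 elsewhere, and its co-receptor gene Nrp2 at 727. Lyve1 stood at 6359 CPM, Mmrn1 at 5513, Fgl2 at 6222, Igfbp5 at 4549, the transcription factor Maf at 2418, Reln, a secreted matrix glycoprotein, at 1569 and Pdpn (podoplanin) at 342. These cells had almost no Flt1 (5.79 CPM), 1 of the 6 rule genes, and little Plvap (43.4), the diaphragm protein of fenestrae. Of their fatty acid genes, Gpihbp1 was at 408 CPM and Cd36 at 49.2.

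The capillary-like cells were marked by VEGF receptors and basement membrane. Flt1 was at 1995 CPM, Kdr at 1734 and Nrp1, a VEGF co-receptor, at 826. Plvap reached 3424 CPM, and the collagen IV genes Col4a1 and Col4a2 reached 5489 and 3113. Sparc (2522), Hspg2, which encodes perlecan (2636), and Igfbp7 (9853) were high there as well. Esm1 (1023 CPM), Rgcc (1036) and Apln (286), the apelin gene of tip cells, were led by this cluster. Fabp4 (1938) and Cd36 (743), which handle fatty acids, were at similar levels in venous-like cells (1922 and 584). Cldn5 was lowest in capillary-like cells, at 133 CPM against 1211 to 2652 in the other clusters. Col1a2 and Col3a1 were among the 10 leading genes of this cluster, and its summed level of fibroblast markers was 3170 CPM, against 255 to 699 in the others. At the finer clustering an unnamed cluster of 9 cells was at 21691 CPM, and the capillary-like clusters of 68 and 11 cells were at 215 and 71.0 CPM.

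The venous-like cells held the genes through which leukocytes leave the blood. Ackr1, a chemokine-binding receptor of venules, was at 860 CPM and at 0 in the other 3 clusters. Madcam1, the addressin that gut-homing lymphocytes bind, was at 478 CPM, Selp (P-selectin) at 149, Icam1 at 414 and Vcam1 at 138, while Sele (E-selectin) had no UMI in any cluster. Il6st, the shared receptor chain of the interleukin-6 family, was at 1837 CPM and Vwf at 489. The arterial-like cells were led by Sox17 (3335 CPM), Sema3g (2438) and the gap-junction gene Gja5 (574). The Notch ligand genes Jag1, Jag2 and Dll4 reached 1094, 950 and 861 CPM, the Notch target Hey1 reached 556 and Efnb2, the arterial ephrin, 1112. Klf2, a transcription factor induced by flow, stood at 2456 CPM in arterial-like and 1593 in venous-like cells, against 889 in capillary-like and 556 in lymphatic-like cells.

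Lymphatic-like cells were 34 of 105 in CT (32.4%, 23.6 to 42.2%), 18 of 33 in Ime (54.5%, 36.4 to 71.9%) and 92 of 184 in Met (50%, 42.6 to 57.4%). Capillary-like cells were 42 (40%), 7 (21.2%) and 40 (21.7%), venous-like cells 20, 4 and 31, and arterial-like cells 9, 4 and 21. Because several of the genes that define the lymphatic-like cluster also differed in level between the matrices, these sizes are counts per matrix and no difference is read from them. Calling a cell lymphatic from at least 2 of the 4 genes Prox1, Lyve1, Flt4 and Mmrn1 gave 30.5%, 45.5% and 51.6%, and 28.6%, 45.5% and 47.3% after the endothelial cells were thinned to 500 UMIs. When the endothelial rule was itself applied to thinned cells, the shares were 21.5%, 50% and 28.7%, so that those of CT and Met no longer stood apart. More depth lets more rule genes be detected in a cell, and the part of depth in these shares was not tested. At a finer clustering the lymphatic-like cells split into a cluster of 81, which held 5.71%, 12.1% and 38.6% of the endothelial cells of CT, Ime and Met, and an unnamed cluster of 63. The first had a median of 3026 UMIs and the second of 1101, and lymphatic markers were high in both, at 40530.5 and 33587 CPM.

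**Figure D3:**
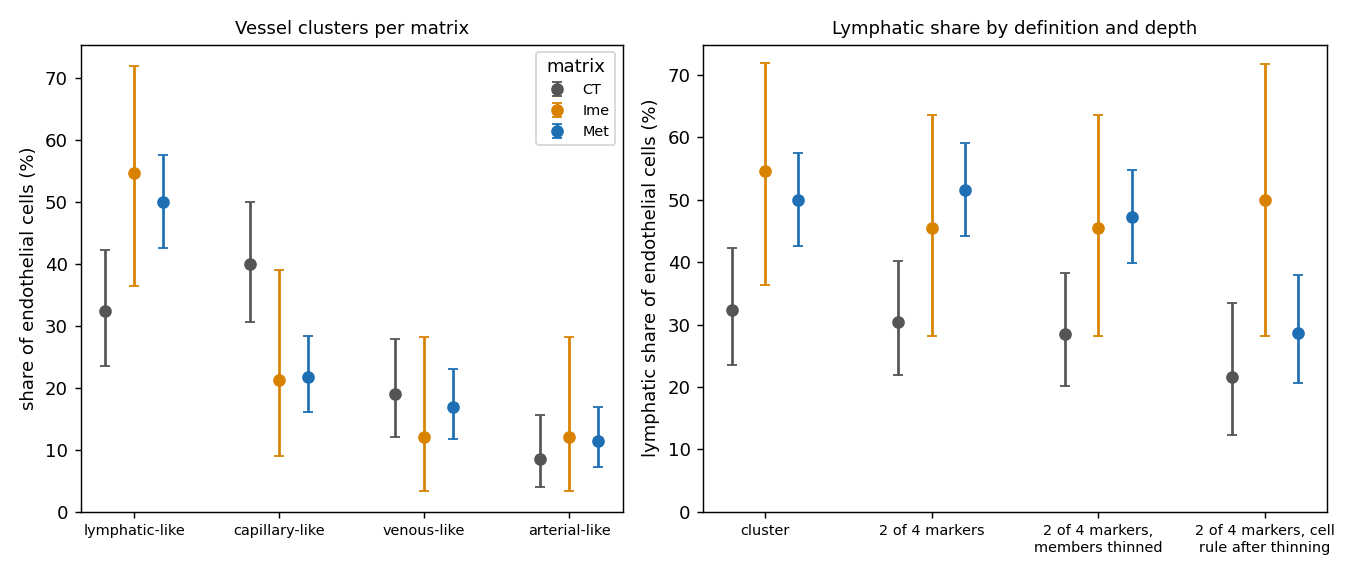
Left, share of the endothelial cells of each matrix (y axis, percent) in the lymphatic-like, capillary-like, venous-like and arterial-like clusters. Right, lymphatic share (y axis, percent, with 95% exact intervals) by cluster, by marker genes, by marker genes after thinning the endothelial cells to 500 UMIs, and with the endothelial rule applied to thinned cells. CT is lowest in each setting, and the gap between CT and Met shrinks to 21.5% against 28.7% in the last.

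For the comparison of matrices, 6030 genes with at least 30 UMIs summed over the endothelial cells were considered. A gene was counted as apart when its level differed at least 2-fold and the 95% Poisson intervals of its levels did not overlap. Both drug matrices were set against the same CT cells, so their comparisons share 1 control, and their values are given side by side.

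In Met against CT, 335 genes (5.56%) were apart, of which 191 (3.17%) were higher and 144 (2.39%) lower in Met. With median-ratio scaling, which moved every log2 ratio by 0.09, the split was 238 higher and 105 lower. It was 118 higher and 26 lower with 100 or more summed UMIs, and 199 higher and 232 lower with 1 or more. The filter on summed UMIs leans on Met, whose endothelial cells gave 496443 UMIs against 123057 in CT, so no excess in either direction is read from the split. Of 12 lymphatic markers considered, 7 were higher in Met and 0 lower, with a median log2 ratio of 1.26 against -0.01 over all 6030 genes, and the count was the same 7 with median-ratio scaling and without the cells that held fibroblast or mural genes. Lyve1 was at 1666 CPM in CT (1446 to 1910), 1747 in Ime (1326 to 2258) and 3900 in Met (3728 to 4077), a log2 ratio of Met to CT of 1.23. Ccl21a was at 2105, 1897 and 6428 CPM (log2 1.61) and Mmrn1 at 1162, 1385 and 3467 (1.58). In all of these CT and Ime lay close together and Met lay above both. Flt4 was at 756, 512 and 1843 CPM (log2 1.29), Reln at 203, 151 and 1035 (2.35), Thy1 at 244, 361 and 703 (1.53) and Fgl2 at 1487, 2349 and 3928 (1.40). Prox1 was not apart, at 431, 392 and 542 CPM (0.33), nor were Maf (918, 723 and 1430, log2 0.64) and Pdpn (171, 120 and 191, log2 0.17).

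These sums also depend on how many of the UMIs came from lymphatic-like cells, which gave 40858 of 123057 UMIs in CT and 290528 of 496443 in Met. Within lymphatic-like cells alone, 115 of 3129 genes (3.68%) were apart between Met and CT, and 1 of the 12 markers was. This marker was Reln, at 612 CPM in CT, 358 in Ime and 1762 in Met. There Ccl21a was at 6339, 4436 and 10963 CPM, Mmrn1 at 3500, 3291 and 5903, Lyve1 at 5017, 4149 and 6653 and Prox1 at 1297, 930 and 916, so that Prox1 was highest in CT. The summed level of the 14 lymphatic markers within lymphatic-like cells was 28734 CPM in CT, 23608 in Ime and 41125 in Met. The median depth of these cells was 1007, 583 and 2888.5 UMIs, and its part in these levels was not tested.

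**Figure D4:**
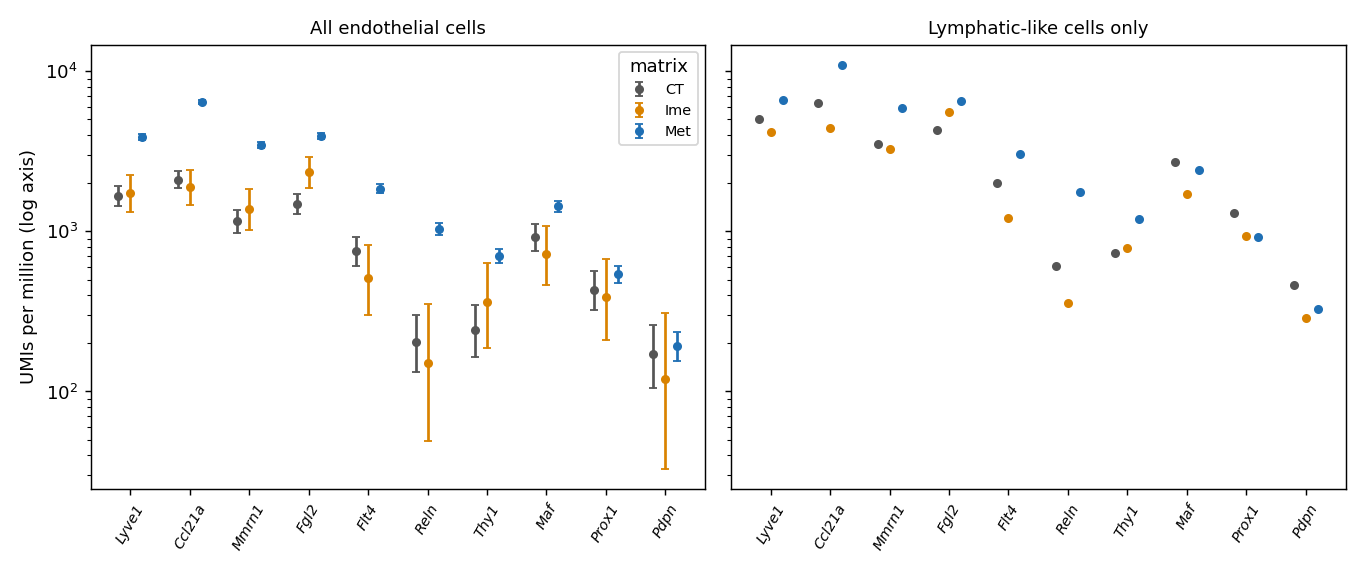
Level of 10 lymphatic genes (y axis, CPM of UMIs, log scale) in CT, Ime and Met, over all endothelial cells (left, with 95% Poisson intervals) and over lymphatic-like cells alone (right). Over all cells Met lies above CT for Lyve1, Ccl21a, Mmrn1, Flt4, Reln and Fgl2, and within lymphatic-like cells the matrices lie closer, with Prox1 highest in CT at 1297 CPM.

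Other genes were higher in Met. Nr2f2, the transcription factor of venous and lymphatic fate, was at 252 CPM in CT, 271 in Ime and 679 in Met (log2 1.43), and Lrg1, a secreted modulator of TGF-beta signalling, at 138, 211 and 397 (1.52). Timp3, an inhibitor of metalloproteinases, was at 1471, 1747 and 3847 (1.39), and the guidance factor Ntn1 at 276, 60.2 and 729 (1.40), nearly all of it in lymphatic-like cells. Ramp2, the co-receptor that turns Calcrl into an adrenomedullin receptor, was at 366, 211 and 777 (1.09) and was the only 1 of the 33 pan-endothelial genes higher in Met. Calcrl itself was not apart, at 504, 602 and 620. Ramp2 was apart within lymphatic-like and within blood vessel cells as well. Egr1, an immediate early gene, had 6, 0 and 89 UMIs (48.8, 0 and 179 CPM). Itgb3, an integrin chain, had 2 UMIs in CT and 61 in Met, a ratio of 7.56 with a counting interval of 2.01 to 63.8. Within the venous-like, capillary-like and arterial-like cells together, 5 of 9 venous markers were higher in Met and 0 lower, namely Ackr1, Nr2f2, Lrg1, Il1r1 and Adgrg6, where 147 of 2944 genes (4.99%) were apart in either direction. Venous-like cells gave 20.5% of the UMIs of these cells in CT, 20.6% in Ime and 35.6% in Met, and the part of this share in the count was not tested. Within venous-like cells alone, Ackr1 was at 535 CPM in CT (9 UMIs, 245 to 1016), 1012 in Ime (4 UMIs) and 927 in Met (68 UMIs, 720 to 1175), with overlapping intervals, and the intervals of Il1r1 and Adgrg6 overlapped between CT and Met as well. Those of Nr2f2 (178 and 763 CPM) and Lrg1 (416 and 1104 CPM) did not, on 3 and 7 UMIs in CT. These values within blood vessel and venous-like cells were added after the data were seen.

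Genes lower in Met than in CT included secreted factors of blood vessels. Cxcl12, which retains CXCR4-bearing cells, was at 805 CPM in CT (654 to 979), 452 in Ime (253 to 745) and 381 in Met (328 to 439), a log2 ratio of -1.08 for Met. Mgp, an inhibitor of calcification and of BMP, was at 748, 120 and 373 (-1.0), Apln at 163, 60.2 and 46.3 (-1.81) and Bmp4 at 122, 30.1 and 36.3 (-1.75). These 4 were not apart within blood vessel cells alone, with median-ratio scaling Cxcl12 and Mgp were no longer apart, and without the cells that held fibroblast or mural genes Apln alone of the 4 was. Clec14a, an endothelial lectin that takes part in sprouting, was at 577, 211 and 280 CPM (-1.04 for Met, -1.45 for Ime) and was likewise not apart within blood vessel cells, at 827, 312 and 588. The difference of Met was not past the fold with median-ratio scaling, and that of Ime was not apart without the cells that held fibroblast or mural genes. Ankrd37, a target of hypoxia-inducible factor, showed a wide gap, with 33 UMIs in 15 cells of CT and 6 UMIs in 6 cells of Met (268 and 12.1 CPM, log2 -4.47). In all other cells of the same matrices Ankrd37 was at 60.9 and 10.9 CPM, so the difference was not limited to endothelium. Of the 9 targets of hypoxia-inducible factor considered it was the only 1 apart. Slc28a2, a nucleoside transporter, was at 163 and 30.2 CPM (-2.43), and Gbp4, an interferon-induced GTPase, at 447 and 209 (-1.09). The 5 fibroblast markers lower in Met (Col1a1, Col1a2, Col3a1, Col6a2 and Postn) rested on few CT cells, with 76.6% of 107 Col1a2 UMIs and 57.0% of 149 Col3a1 UMIs from 1 cell each. Without the cells that held fibroblast or mural genes, 1 fibroblast marker was still considered and 0 were apart. Of 6 mural markers 3 were higher in Met than in CT, among them Tagln, with 152 UMIs spread over 66 Met cells against 6 UMIs in 6 CT cells.

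Markers of goblet and other epithelial cells were among the genes apart between Met and CT, and the part of their RNA in the other differences was not tested. Of 7 goblet markers 6 were higher, among them Muc2, the gel-forming mucin, at 626 CPM in CT, 392 in Ime and 1920 in Met, and of 14 epithelial markers 5 were higher and 1, Car1, lower. In all other cells Muc2 was at 13199, 9871 and 17468 CPM. Of the 191 higher genes 22, and of the 144 lower genes 20, also differed at least 2-fold the same way in the other cells of the matrices. At 1.5-fold these were 58 and 77, and over all 6030 genes 100 were at least 2-fold higher and 244 lower in the other cells. The mitochondrial gene mt-Atp6 was at 114 CPM in CT, 30.1 in Ime and 643 in Met, and at 441, 374 and 1122 in the other cells.

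In Ime against CT, 79 genes (1.31%) were apart, 53 (0.879%) higher and 26 (0.431%) lower in Ime. With median-ratio scaling, which moved every log2 ratio by -0.18, 31 were higher and 41 lower. The 33 Ime cells gave only 33205 UMIs, and 506 of the 6030 genes were at 0 there, where bounds are set from a floor of 3 counts over the matrix. The clearest endothelial gene was Cd36, the fatty acid translocase of capillaries. It had 63 UMIs in 27 CT cells, 1 UMI in 1 Ime cell and 143 UMIs in 34 Met cells, or 512 CPM (393 to 655), 30.1 (0.762 to 168) and 288 (243 to 339). The ratio of CT to Ime was 17.0 with a counting interval of 2.94 to 682, and the ratio of Met to Ime was 9.56 (1.69 to 380). Within blood vessel cells alone Cd36 was at 730, 52.0 and 626 CPM and remained apart. Within capillary-like cells it had 44, 0 and 73 UMIs in CT, Ime and Met, or 821 CPM (596 to 1102), 0 (up to 382) and 775 (608 to 975), with 7 such cells in Ime. At the finer clustering, 29 of the 63 CT UMIs and 51 of the 143 Met UMIs came from 1 capillary-like cluster of 11 cells, which held 7 CT cells, 4 Met cells and 0 Ime cells. The part of this makeup in the difference was not tested. The other cells of the matrices showed no such order, with 15.01, 18.1 and 14.1 CPM. Fabp4, the fatty acid binding protein of the same capillaries, was at 1316, 1144 and 709 CPM and was not apart, with 63.2% of its 38 Ime UMIs in 1 cell. Without the cells that held fibroblast or mural genes, Fabp4 was apart as well. Gpihbp1 was not apart, at 284, 151 and 397 CPM.

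Further genes lower in Ime than in CT were Mgp (4 UMIs against 92, log2 -2.63) and Ccdc85a, a gene of the capillary-like cluster, with 2 against 46 UMIs and a ratio of 6.21 (1.62 to 52.8); 18 of those 46 came from the same 7 CT cells. Tspan9, a membrane organiser, had 1 UMI against 40 in CT and 179 in Met, a ratio of 10.8 for CT (1.83 to 437). Lamb1, the laminin beta-1 chain, had 0 UMIs in Ime against 30 in CT and 106 in Met. Against the floor of 3 counts its log2 ratio was at most -1.43 to CT and -1.24 to Met. Fn1 (fibronectin) was at 151 CPM against 512, with 55.6% of its CT UMIs in 1 cell. Higher in Ime than in CT were Hey1, at 452 CPM (253 to 745) against 81.3 in CT (39.0 to 149) and 131 in Met, a log2 ratio of 2.47, and Ctnnd1, the p120 catenin that holds VE-cadherin at the membrane, at 813 against 276 and 338 (1.56). Hey1 was higher within blood vessel cells as well, and was not apart without the cells that held fibroblast or mural genes. Eif2ak2, the double-stranded RNA kinase, had 14 UMIs in 10 cells (422 CPM) against 40.6 in CT and 54.4 in Met. Stk11, the LKB1 kinase that acts upstream of AMPK, was at 482 CPM against 171 and 141, but was not apart with median-ratio scaling. Cd74, the invariant chain of MHC class II, was at 783 CPM in Ime, 325 in CT and 242 in Met, and at 762, 721 and 551 in the other cells of the matrices.

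The largest ratios in Ime were of smooth muscle genes from single cells. All 6 mural markers considered were higher in Ime than in CT. Tagln had 30 UMIs in 3 Ime cells, 90.0% of them in 1 cell, Acta2 had 28 UMIs in 4 cells, 75.0% in 1, and Myh11 had 14 UMIs in 2 cells, 85.7% in 1. Without the cells that held fibroblast or mural genes, 51 of 5598 genes (0.911%) were apart in place of 79 of 6030 (1.31%). Of the 2 mural markers still considered 0 were apart. Of the 53 genes higher in Ime, 11 had 50% or more of their UMIs in 1 cell, as did 6 of the 26 lower genes in CT.

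Of 14 epithelial markers Krt8 alone was apart between Ime and CT, at 271 against 699 CPM, and of the immediate early genes Jund, at 361 against 788 CPM, both lower in Ime. Neither was apart without the cells that held fibroblast or mural genes. Lists with no gene apart in Ime against CT included the lymphatic markers (0 of 12, median log2 -0.14), the venous markers (0 of 10), VEGF and angiopoietin signalling (0 of 13), BMP and TGF-beta signalling (0 of 13), leukocyte adhesion (0 of 7), shear response (0 of 11), glycolysis (0 of 11), the integrated stress response (0 of 10), complex I subunits (0 of 27), interferon-induced genes (0 of 20) and heat shock chaperones (0 of 9). In Met against CT, 0 genes were apart among junction genes (15), Notch signalling (10), the shear response (11), fatty acid handling (13), glycolysis (11), the integrated stress response (10), complex I subunits (27), AMPK and mTOR (12) and heat shock chaperones (9). A count of 0 here says only that no gene passed the fold and the intervals at these depths. Klf2 was at 1203 CPM in CT, 753 in Ime and 898 in Met, and Ddit4, a stress-induced inhibitor of mTOR, at 626, 542 and 850. Trib3, a pseudokinase of the stress response, had 15, 1 and 51 UMIs (122, 30.1 and 103 CPM), against 1.36, 2.12 and 5.82 CPM in the other cells. In CT and Met it was thus far above the other cells, while 1 UMI in Ime has an interval of 0.762 to 168 CPM. Hk2, which encodes hexokinase 2, had 1, 3 and 29 UMIs and was far below the other cells (8.13, 90.3 and 58.4 against 545, 650 and 527 CPM). The drug transporter genes Abcg2 and Abcb1a were not apart in any comparison, at 163, 301 and 254 and at 89.4, 181 and 119 CPM. The rule genes were not apart in any comparison either, which the choice of the cells affects.

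In Ime against Met, 285 genes (4.73%) were apart, 160 (2.65%) higher and 125 (2.07%) lower in Ime. With median-ratio scaling, which moved every log2 ratio by -0.27, the split turned to 75 higher and 215 lower. It was 60 higher and 116 lower with 100 or more summed UMIs, and 241 higher and 125 lower with 1 or more. Of 12 lymphatic markers 0 were higher and 6 lower in Ime (Lyve1, Flt4, Mmrn1, Ccl21a, Reln and Tbx1), with a median log2 ratio of -1.07 against -0.05 over all genes. Within lymphatic-like cells 3 of them were lower, namely Flt4, Ccl21a and Reln, where 123 of 3129 genes (3.93%) were apart and 52 of these lower. Lists of other cell types also stood apart: 5 of 7 goblet markers (median log2 -2.17) and 5 of 14 epithelial markers (-1.44) were lower in Ime, and 5 of 6 mural markers (2.23) and 2 of 6 fibroblast markers (1.13) higher. Their part in the other differences was not tested. The blood capillary genes Car4 and Cd36 were lower in Ime, and so were Ramp2, Sox18 and S1pr1 (the sphingosine-1-phosphate receptor of endothelium), while Erg and Gata2 were higher, though not with median-ratio scaling. Madcam1 had 9 UMIs in 2 Ime cells and 29 in 7 Met cells, or 271 CPM against 58.4. Txnip was at 1446 CPM in Ime, 1731 in CT and 2959 in Met, a log2 ratio of Ime to Met of -1.03. Of the 160 higher genes 54, and of the 125 lower genes 36, differed at least 2-fold the same way in the other cells, where 697 of all 6030 genes were higher and 246 lower by that fold, and 24 of the 160 had 50% or more of their UMIs in 1 Ime cell. The mitochondrial gene mt-Nd6 was 1 of those that also differed in the other cells, at 1566 CPM in Ime and 220 in Met, and at 1469 and 290 in the other cells.

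In order to compare the drugs with replicates, the endothelial genes were read from the bulk colon libraries, which the cell rule did not use. Bulk levels are CPM of reads, scaled by the library total and the TMM factor, and are given for the 3 libraries and as mean ± SD (n = 3). Changes are log2 ± SE with the edgeR quasi-likelihood test, adjusted by Benjamini-Hochberg over all genes tested and called at 0.05. In whole tissue, fewer endothelial cells and less RNA per cell cannot be told apart. The labels do not say whether replicates are separate animals, so these p-values measure the spread between the libraries. Both drugs were compared with the same 3 controls.

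At 6 h after metformin, 6 of 41 endothelial genes (the 6 rule genes and 35 others) fell and 0 rose. Over all genes tested, 19.7% were called, 8.37% lower and 11.3% higher. The median log2 change of the 41 genes was -0.15, against -0.04 over all genes. Clec14a was at 13.9, 14.2 and 16.8 CPM after metformin and at 28.4, 25.3 and 29.9 CPM in controls, or 14.99 ± 1.57 against 27.9 ± 2.33 CPM. It fell by 0.89 ± 0.11 on the log2 scale (edgeR adjusted p = 0.000522), and the groups lay well apart. Adgrf5, an adhesion receptor of endothelium, was at 15.2, 16.4 and 17.4 CPM against 25.3, 20.5 and 24.4 CPM and fell by 0.52 ± 0.12 (edgeR adjusted p = 0.0106). Calcrl, the receptor for adrenomedullin, was at 12.7, 10.9 and 13.7 CPM against 17.4, 16.9 and 19.2 CPM and fell by 0.52 ± 0.12 (edgeR adjusted p = 0.0129). Vwf (-0.48), Ldb2 (-0.65) and She (-0.80) completed the 6, with edgeR adjusted p of 0.0155 to 0.0281. Without control replicate 3, 2 of the 41 genes were called lower and 2 higher, and over all genes 2169 were called, against 3607 with all libraries.

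Imeglimin at 6 h gave the larger set, with 11 of the 41 genes lower and 2 higher. Over all genes, 33.3% were called, 15.1% lower and 18.1% higher, and the median change of the 41 was -0.16, against -0.03 over all genes. Clec14a was at 12.7, 12.0 and 11.2 CPM, or 12.0 ± 0.744, and fell by 1.21 ± 0.11 (edgeR adjusted p = 5.95e-05). Calcrl was at 8.63, 8.29 and 7.69 CPM, or 8.20 ± 0.477 against 17.8 ± 1.21 in controls, and fell by 1.12 ± 0.12 (edgeR adjusted p = 0.000133). In both genes every library after imeglimin lay below every library after metformin and below every control. Tek, the angiopoietin receptor, fell by 0.69 (edgeR adjusted p = 0.00589), Adgrl4 by 0.61 (0.00936), Ptprb, the phosphatase that restrains Tek, by 0.69 (0.0113), Podxl by 0.56 (0.0227) and She by 1.05 (0.00467). Rasip1, a regulator of vessel lumen formation, rose by 0.55 (edgeR adjusted p = 0.00762) and Bcl6b, a transcriptional repressor of endothelium, by 0.64 (0.0446). Pecam1 passed at an edgeR adjusted p of 0.0449 with overlapping groups (29.5 ± 2.49 against 36.1 ± 3.51 CPM). With the replicate number as a block, the Pecam1 value was 0.0509 and that of Bcl6b 0.0640.

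Genes of the vessel subtypes were called in both directions at 6 h, where 8.37% of all genes were lower and 11.3% higher after metformin and 15.1% lower and 18.1% higher after imeglimin. Of 14 lymphatic markers, 4 fell and 0 rose after metformin (median -0.42) and 5 fell and 1, Gng11, rose after imeglimin (median -0.24). Mmrn1 was at 17.2, 17.2 and 21.7 CPM after metformin, 17.6, 16.9 and 14.8 after imeglimin and 33.0, 31.7 and 25.0 in controls, and fell by 0.68 ± 0.14 and 0.87 ± 0.14 (edgeR adjusted p = 0.0063 and 0.00094). Prox1 fell by 0.84 and 0.69 (edgeR adjusted p = 0.0078 and 0.0122) and Reln by 0.51 and 0.61 (0.0207 and 0.00513), while Maf fell after metformin (-0.54, 0.0200) and Flt4 (-0.66, 0.00518) and Lyve1 (-0.54, 0.0280) after imeglimin. Lyve1 did not pass with the replicate block (0.0513). Of 15 capillary markers, 2 rose and 0 fell after metformin, and 2 rose and 1, Col15a1 (-0.59, edgeR adjusted p = 0.0148), fell after imeglimin. Apln rose from 1.63 ± 0.387 CPM to 3.95 ± 0.0532 after metformin and 4.02 ± 0.524 after imeglimin, by 1.27 ± 0.21 and 1.29 ± 0.21 (edgeR adjusted p = 0.00243 and 0.00121), and Rgcc rose by 0.78 and 1.35 (0.0298 and 0.00116). Of 15 arterial markers, 2 rose and 1 fell after metformin, and 2 rose and 2 fell after imeglimin. Efnb2 rose by 0.48 and 0.60 (edgeR adjusted p = 0.0132 and 0.00227) and Unc5b, a netrin receptor, by 0.56 and 0.85 (0.0174 and 0.00115). Cxcl12 fell by 0.51 and 0.78 (edgeR adjusted p = 0.0161 and 0.000986), and Sema3g fell after imeglimin (-0.94, 0.0161). Of 14 venous markers, 5 fell and 1, Lrg1, rose after each drug (by 0.77 and 0.66, edgeR adjusted p = 0.0254 and 0.0316). Tmem252 fell by 1.07 and 1.19 (edgeR adjusted p = 0.000637 and 0.00019) and Nr2f2 by 0.47 and 0.41 (0.00938 and 0.0112). Of 15 fibroblast markers 0 and 2, and of 14 mural markers 2 and 2, passed the test after metformin and imeglimin, all of them lower. After each drug 15 of 15 fibroblast markers had a negative value, with medians of -0.27 and -0.35. Of the mural markers 13 and 9 of 14 were negative, with medians of -0.44 and -0.09. Over all genes 9723 and 9545 of 18294 were negative. The part of fibroblast and mural cells in the endothelial values was not tested. Colon cells other than endothelium also express Apln, Efnb2, Unc5b and Cxcl12, and their part in these values was not tested.

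Between the drugs at 6 h, edgeR called 0 of the 41 genes (0.645% called over all genes, 0.476% higher and 0.169% lower). At an unadjusted edgeR p under 0.05 there were 6 of the 41, beside 3009 of all 18294 genes. DESeq2 called 2 of the 41, beside 743 over all genes. For Calcrl the difference of imeglimin from metformin was -0.60 ± 0.12 (approximate 95% interval -0.84 to -0.36) with an edgeR adjusted p of 0.0595. For Clec14a it was -0.32 (-0.55 to -0.10, adjusted p = 0.214), and for Adgrf5 -0.06 (-0.29 to 0.17, adjusted p = 0.817).

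After 4 weeks of metformin, 6 of the 41 genes fell and 2 rose. Over all genes 19.7% were called, 8.04% lower and 11.6% higher, and the median change was -0.14, against -0.05 over all genes. Cd34 was at 19.2, 21.0 and 18.5 CPM against 31.7, 27.7 and 29.7 CPM in controls and fell by 0.60 ± 0.09 (edgeR adjusted p = 0.00214). It kept its call in every alternative run, and fibroblasts of this tissue carry it as well. Pecam1 was at 37.9, 34.7 and 36.4 CPM against 44.6, 42.9 and 43.4 CPM and fell by 0.26 ± 0.07 (edgeR adjusted p = 0.0288, 0.0525 with the replicate block). Calcrl was at 14.6, 14.4 and 14.4 CPM against 19.8, 17.2 and 19.9 CPM and fell by 0.39 ± 0.10 (edgeR adjusted p = 0.0271). Tek fell by 0.65 (0.0176), S1pr1 by 0.61 (0.0320) and Ptprb by 0.29 (0.0416). Exoc3l2, a vesicle-tethering gene found in endothelium, rose from 3.80 ± 0.400 to 6.82 ± 0.799 CPM, by 0.84 ± 0.19 (edgeR adjusted p = 0.0149), and Sox18, a transcription factor of vessel and lymphatic development, by 0.66 (0.0454). Without control replicate 1, control replicate 3, metformin replicate 2 or metformin replicate 3, 2 of the 41 genes were called. Over all genes these runs called 2358, 2106, 2066 and 2601, against 3669 with all libraries. Of 15 capillary markers 1 fell (Fabp5) and 0 rose, and of 14 venous markers 2 fell (Nr2f2 and Cpe) and 0 rose. Of 15 arterial markers 2 fell (Jag1 and Cxcl12) and 1 rose (Unc5b). Fibroblast and mural genes fell in the same libraries, 9 of 15 and 8 of 14, with medians of -0.40 and -0.44, and their part in the endothelial values was not tested.

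After 4 weeks of imeglimin, 1 of the 41 genes fell and 2 rose, with 13.0% called over all genes (7.97% higher and 5.07% lower) and a median of -0.01 against -0.02. Cd34 fell to 23.3 ± 1.90 CPM, by 0.35 ± 0.09 (edgeR adjusted p = 0.0355, 0.0539 with the replicate block). In the same libraries 4 of 15 fibroblast markers fell, and 14 of 15 had a negative value (median -0.34). Of 14 mural markers edgeR called 0, with 2 at an unadjusted p under 0.05, beside 5343 of all 18665 genes. The part of fibroblast and mural cells in the Cd34 value was not tested. Exoc3l2 was at 8.32, 6.74 and 5.14 CPM and rose by 0.82 ± 0.19 (edgeR adjusted p = 0.0236), and Sox18 rose by 0.70 (0.0478). The Notch ligand gene Dll4 fell by 0.76 (edgeR adjusted p = 0.0285), the only 1 of 15 arterial markers called, and kept its call in 6 of 11 alternatives. Of 14 venous markers 1, Nr2f2, fell (-0.32, edgeR adjusted p = 0.0324), and of 15 capillary markers 0 were called. Without control replicate 1, control replicate 3 or imeglimin replicate 1, edgeR called 0 of the 41 genes. Over all genes these runs called 1222, 932 and 1546, against 2433 with all libraries. Of 13 lymphatic markers edgeR called 1 after metformin (Thy1, -0.54, adjusted p = 0.0189) and 0 after imeglimin. After metformin 13 of 13 lymphatic markers had a negative value (median -0.21), as had 14 of 15 fibroblast markers, 14 of 14 mural markers and 10190 of 18665 genes. Clec14a, low at 6 h, was at 24.5 ± 3.56 CPM after 4 weeks of metformin and 26.9 ± 4.24 after imeglimin, against 25.5 ± 1.72 in controls, with log2 changes of -0.06 and 0.08 (edgeR adjusted p = 0.802 and 0.768). Whether its change differed between 6 h and 4 weeks was not tested. Cd36 was low in the Ime cells, which are from 12 weeks, and was not apart between Met and CT. Other cells of the matrices held it too, at 14.1 to 18.1 CPM. In whole colon at 4 weeks Cd36 changed by -0.74 ± 0.24 after metformin and -0.63 ± 0.24 after imeglimin and did not pass (edgeR adjusted p = 0.0551 and 0.112). It was at 11.7 ± 3.11 and 12.6 ± 4.17 CPM, against 19.6 ± 2.19 in controls. With the replicate block its adjusted p was 0.00700 and 0.0188.

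Between the drugs at 4 weeks, edgeR called 0 of the 41 genes (0.611% called over all genes, 0.145% higher and 0.466% lower). At an unadjusted edgeR p under 0.05 there were 7 of the 41, beside 3523 of all 18665 genes. DESeq2 called 2 of the 41, beside 1292 over all genes. The difference of imeglimin from metformin was 0.25 for Pecam1 (0.11 to 0.39, edgeR adjusted p = 0.115), 0.38 for Calcrl (0.17 to 0.58, 0.108) and 0.25 for Cd34 (0.07 to 0.43, 0.190). Of the 6 rule genes, only Pecam1 was called in bulk colon. Cdh5 changed by -0.33 after 4 weeks of metformin (edgeR adjusted p = 0.0927) and by -0.36 at 6 h after imeglimin (0.0748), and Kdr by 0.35 at 6 h after either drug (0.134 and 0.104).

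**Figure D5:**
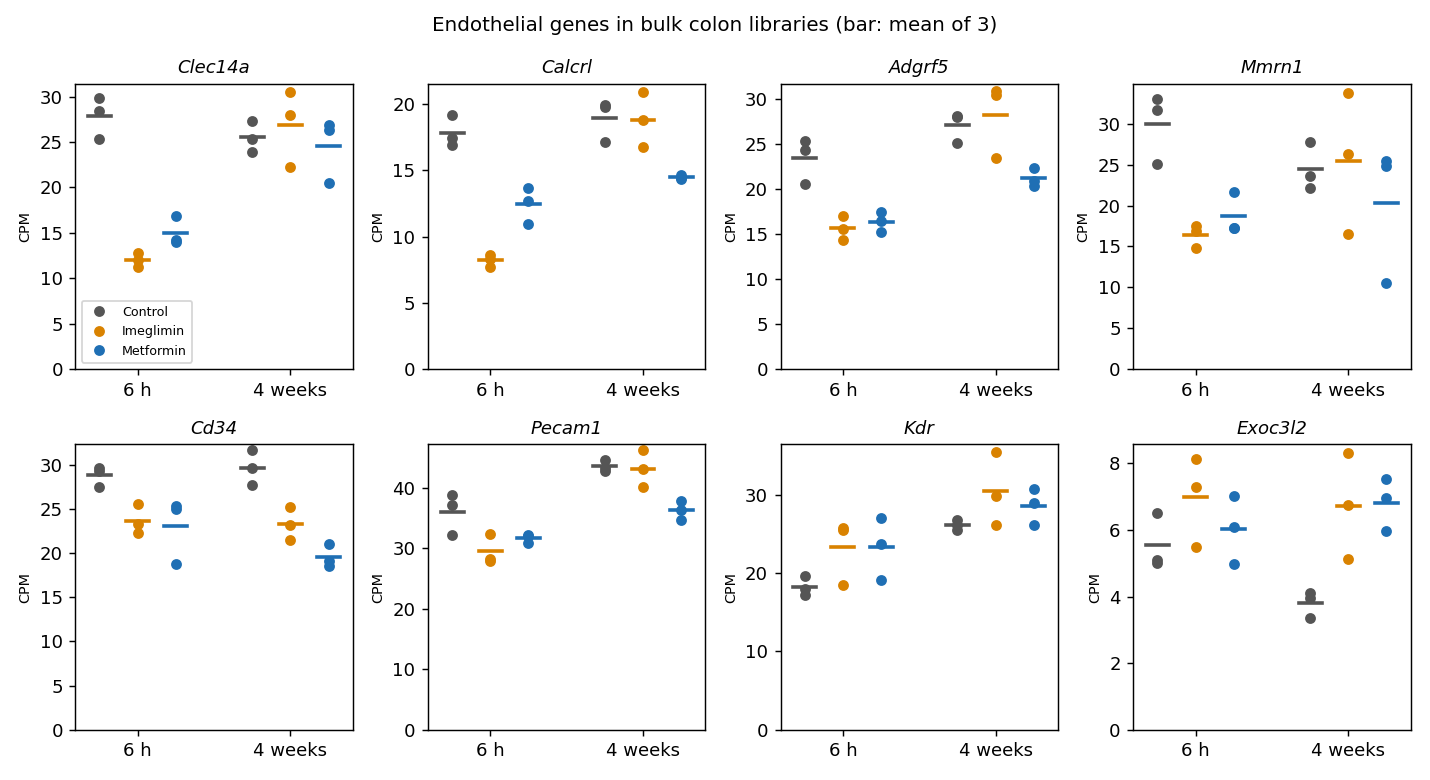
Level of 8 endothelial genes (y axis, CPM, a separate axis for each gene) in each bulk colon library of control, metformin and imeglimin (x axis) at 6 h and at 4 weeks; points are libraries and bars are means of 3. Clec14a and Calcrl lie below the controls at 6 h after both drugs, and at 4 weeks Cd34 lies lower and Exoc3l2 higher than in controls.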

How the data were processed

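The 3 deposited matrices of UMI counts, made with Cell Ranger 9.0.0 per the submitters' processing notes, and deposited tables of bulk read counts per gene for 18 colon libraries were used. For bulk, HISAT2 and StringTie are named in the submitters' processing notes, with mm10 and GRCm39 given without roles, so no coordinates are printed. The endothelial rule, the gene lists and the rule for named genes (the rule genes, the 10 genes with most UMIs, the 20 with the highest ratio to other cells, the 10 largest differences each way, list members past the fold, a fixed set, and in bulk the 5 endothelial genes with the smallest p) were chosen with earlier results of these data known. Other named genes, including the bulk subtype markers, mt-Atp6, mt-Nd6, Abcg2 and Abcb1a, were picked after their values were seen. Of 550 list genes, 542 were matched among 19070 features.

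UMIs were summed per matrix and scaled to CPM, with exact Poisson 95% intervals; shares have exact Clopper-Pearson 95% intervals. No doublet caller was run: the rule drops cells with Epcam or Ptprc, and counts were repeated without cells with 3 or more fibroblast or mural genes. Clusters came from Leiden (scanpy 1.11.5, igraph 0.11.9; 1500 variable genes, 20 components, 15 neighbours, resolution 0.5).

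Bulk counts were tested with edgeR 4.0.16 (TMM, filterByExpr, quasi-likelihood, 9 libraries of a table in 1 fit; 18294 genes at 6 h and 18665 at 4 weeks). Alternatives used DESeq2 1.42.0 (R 4.3.3), other filters and scalings, a replicate block and each library left out. A batch label equal to the replicate number pairs the libraries; same-numbered libraries had a mean correlation of deviations of 0.0687 at 4 weeks (-0.0344 for other numbers) and -0.00563 at 6 h (0.00266). Scripts were tested on simulated data.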

Additional observations from a re-analysis of the deposited data

Results flagged for a closer look

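Bcl6b, a transcriptional repressor of endothelium, had values of opposite sign after imeglimin at the 2 times, and passed the test at 6 h only. At 6 h it was at 3.65 CPM after imeglimin and 2.33 CPM in controls (log2 0.64 ± 0.22, edgeR adjusted p = 0.0446, 0.0640 with the replicate block), and at 4 weeks at 2.10 CPM against 3.33 CPM (log2 -0.66 ± 0.29, edgeR adjusted p = 0.159). The call at 6 h was kept in 4 of 11 alternatives and lost in 7 (edgeR adjusted p = 0.0127 to 0.143). Every library after imeglimin lay above the controls at 6 h and below them at 4 weeks. Bcl6b was picked by this very pattern among the endothelial and vessel marker genes, so the pattern is no further support. How many of all genes show it was not counted. The difference between the times was not tested.

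The rule sets aside cells that held 3 or more of its 6 genes together with Epcam or Ptprc. They were 2.96% of the Met cells (383, interval 2.68 to 3.27%), 0.650% of the CT cells (52, 0.486 to 0.852%) and 0.127% of the Ime cells (6, 0.0466 to 0.276%). Their median depths were 4675, 2264 and 1130 UMIs. Their summed level of epithelial markers was 40535, 27428 and 25194 CPM, and that of the 6 rule genes 468, 1513 and 2143 CPM, against 6722, 7736 and 6234 in the endothelial cells.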

How the results depend on the processing

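None of the 79 bulk gene results changed direction under the 11 alternatives run for each. They were the 71 called results of endothelial and vessel marker genes against control, with those of Kdr and Cdh5, which were not called. Since called genes were chosen and each alternative reused these libraries, a kept direction is no independent support. The endothelial shares of CT, Ime and Met were 2.41%, 1.37% and 1.73% with 2 or more rule genes, 0.638%, 0.211% and 1.09% with 4 or more, and 0.814%, 0.467% and 0.893% after thinning; with Epcam and Ptprc allowed, CT was 1.96% and Met 4.39%. At the finer clustering the cluster of 81 cells named lymphatic-like held 5.71%, 12.1% and 38.6%. These shares leave out the unnamed cluster of 63 shallower cells (28, 14 and 21), in which lymphatic markers were high as well. The lymphatic-like share was 30% in Ime with 4 or more rule genes. With the rule applied to thinned cells it was 21.5% in CT and 28.7% in Met. Counts of genes apart are given for Ime against CT, Met against CT and Ime against Met. With 100 or more UMIs they were 40, 144 and 176 of 1504 (2.66%, 9.57% and 11.7%). In lymphatic-like cells they were 20, 115 and 123 of 3129 (0.639%, 3.68% and 3.93%). In blood vessel cells they were 51, 147 and 103 of 2944 (1.73%, 4.99% and 3.50%). Without cells that held fibroblast or mural genes, 51 of 5598 (0.911%) were apart in Ime against CT. With 4 or more rule genes, 189 of 4888 (3.87%) were apart in Ime against Met. Depth limits all Ime values.

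Leaving out 1 bulk library gave 2 to 7 called endothelial genes for metformin and 0 to 2 for imeglimin at 4 weeks, 4 to 6 and 9 to 13 at 6 h, and 0 to 1 between the drugs at each time. The 1 call at 4 weeks came without imeglimin replicate 3 and the 1 at 6 h without metformin replicate 2. Over all genes, leaving out 1 library gave 2066 to 3429 calls for metformin and 932 to 1623 for imeglimin at 4 weeks. At 6 h it gave 2169 to 3144 and 4004 to 5935. Between the drugs it gave 11 to 543 at 4 weeks and 0 to 156 at 6 h. For imeglimin at 4 weeks, DESeq2 called 5 endothelial genes (3343 over all genes) and a filter of 1 or more count called 1 (1861). Between the drugs DESeq2 called 2 at each time (1292 over all genes at 4 weeks and 743 at 6 h). With the replicate block, counts were 8, 2 and 0 at 4 weeks and 7, 11 and 0 at 6 h (metformin, imeglimin, imeglimin against metformin). Over all genes they were 3546, 2059 and 92 at 4 weeks and 3035, 5361 and 19 at 6 h. Of 71 called gene results, 26 kept their call in all 11 alternatives and 7 lost it under the block, among them Nr2f2 at 4 weeks (adjusted p = 0.0508 and 0.0634). The cause of these changes was not tested. The settings for vessel clusters alone, thinned lymphatic shares and cells with Epcam or Ptprc were chosen after seeing the data.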
